A study of Drosophila melanogaster with 37 samples.

Results

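Binding of CLAMP and of GAF was compared in cells treated with dsRNA against GAF, by setting 2 peak lists of CLAMP (replicates 1 and 2) against 2 peak lists of GAF (replicates 1 and 2). These 4 lists were taken by their labels and hold 37428 of the 260791 regions that 25 lists of the series place on X, 2L, 2R, 3L, 3R and 4. All samples come from S2, an embryonic Drosophila melanogaster line of male type, treated with 4.5 ug/mL of dsRNA against GAF (the trl gene), against GFP as the control, or against CLAMP. Chromatin was fixed, sheared and precipitated with rabbit antibodies to CLAMP or GAF or with a goat antibody to MSL3. No label says whether replicates are separate cultures, so p-values measure only the spread between these libraries.

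CLAMP recognises GA-rich DNA through its zinc fingers and links the MSL dosage compensation complex to the male X. GAF, the GAGA factor, is a BTB-domain protein with a zinc finger that binds GAGA elements, mostly at promoters, and helps to keep them free of nucleosomes. Their motifs overlap, so the places where 1 factor is found without the other, and the distance between them where both are found, are central questions for this pair. MSL3 is a chromodomain subunit of the MSL complex.

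The GAF lists themselves do not show that GAF was depleted. They held 4220 and 18267 regions under GAF RNAi, and 29233, 3543 and 2676 in the 3 GAF lists of GFP RNAi. The 2 GAF lists of GAF RNAi thus stand far apart from each other, and each lies inside the range of the control. The CLAMP lists held 7524 and 7417 regions. The number of reads behind each list is unknown, and the difference in length between CLAMP and GAF (log2 difference -0.23) was smaller than the spread of the GAF lists (exact permutation p = 1). With 2 libraries against 2, an exact two-sided permutation test cannot give a p below 0.333, so no contrast between the factors could pass 0.05.

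The regions differed between libraries in length more than between factors. CLAMP regions had a median width of 232 bp in replicate 1 and 360 bp in replicate 2, and GAF regions 362 bp and 359 bp. CLAMP replicate 1 was the narrow one, and the other 3 lists were within a few bp of each other. The shortest region of each list was 148 bp and 201 bp for CLAMP and 196 bp and 253 bp for GAF. The factors differed by -64.5 bp (CLAMP 296 ± 90.5 bp, GAF 360.5 ± 2.12 bp, SD, n = 2 each, exact permutation p = 0.667). The part of the library's shortest width in this difference was not tested. Without CLAMP replicate 1 the difference was -0.5 bp, and without CLAMP replicate 2 it was -128.5 bp.

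Merging regions that share at least 1 bp gave 28052 sites, and most of them belonged to 1 list. Sites called in a single list made up 80.7%, and GAF replicate 2 by itself gave 15229 of them. Both CLAMP lists called 3312 sites and both GAF lists called 2006. All 4 lists called 959 sites, which are referred to as shared. Both CLAMP lists and no GAF list called 1606 sites (CLAMP alone), and both GAF lists and no CLAMP list called 758 (GAF alone). These counts depend on the class rule and on single libraries together. With a list left out, a class was defined by the remaining list of that factor, which is a looser rule. Under it, shared sites numbered 1511 without GAF replicate 2, and CLAMP-alone sites 4784 and 5014 without CLAMP replicate 1 or 2. GAF-alone sites numbered 16080 and 1879 without GAF replicate 1 or 2.

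**Figure D1:**
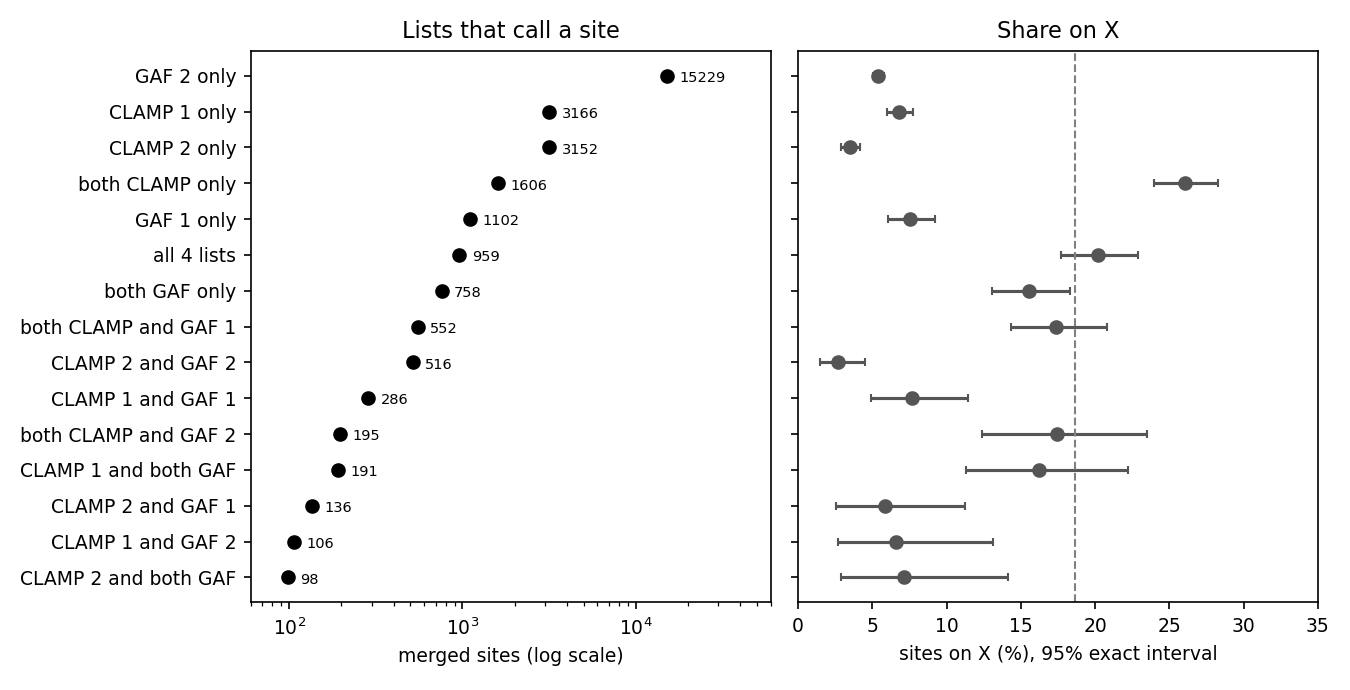
Left, number of merged sites (log axis) for each combination of the 4 lists that call them. Right, percentage of those sites on X with exact 95% intervals, the dashed line marking the 18.6% of the 6 arms that X makes up. Sites called by both CLAMP lists and no GAF list lie above the line (26.1%), and sites of a single list lie below it (3.49% to 7.53%).

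Read from the CLAMP side, 29.0% of the 3312 sites were GAF sites in both lists, 22.6% in 1 list and 48.5% in neither. Read from the GAF side, 47.8% of the 2006 sites were CLAMP sites in both lists, 14.4% in 1 list and 37.8% in neither. CLAMP stood without GAF at a larger share of its sites on X than on autosomes (56.4% of 743 sites, 95% exact interval 52.7 to 60, against 46.2% of 2569, 44.3 to 48.2). On X, GAF sites were shared with CLAMP at 55.4% of 350 (50.1 to 60.7) and on autosomes at 46.2% of 1656 (43.8 to 48.6). These intervals cover counting error only, and sites are not replicates.

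Region by region, the 2 GAF lists, which differ in length, gave very different shares. Of the regions of CLAMP replicates 1 and 2, 16.2% and 14.7% lay over regions of both GAF lists. Of the regions of GAF replicate 1, 37.2% (1568 of 4220) lay over regions of both CLAMP lists. Of those of GAF replicate 2, 6.28% did (1148 of 18267). The GAF lists thus differed more in this share than in the number of such regions, and the part of list length was not tested. The CLAMP shares fall between those of the 2 GAF lists. The means were 15.4% ± 1.03 and 21.7% ± 21.8 (SD, n = 2 each, exact permutation p = 1). The sign of this difference turned with a -log10 q of at least 5 (10.8 points) and without GAF replicate 1 (16.2 points). Without GAF replicate 1, a CLAMP region had to lie over GAF replicate 2 only.

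Part of the overlap of GAF replicate 1 with CLAMP lay at sites that the longer GAF list does not hold. GAF replicate 1 overlapped CLAMP replicates 1 and 2 with 48.8% and 43.8% of its regions and GAF replicate 2 with 48.5%, close to the value with its own partner. GAF replicate 2, the longest list, overlapped the CLAMP lists with 8.05% and 10.2% of its regions and GAF replicate 1 with 11.9%. Both CLAMP lists and GAF replicate 1, without GAF replicate 2, called 552 sites. Both CLAMP lists and GAF replicate 2, without GAF replicate 1, called 195. In GAF replicate 1, the 552 sites had a median fold enrichment of 1.92, against 4.68 at shared sites and 3.31 at GAF-alone sites. Fold enrichment is the authors' value for a region within its own list. In CLAMP replicates 1 and 2, the 552 sites had medians of 2.55 and 2.43, near those of CLAMP-alone sites (2.51 and 2.61).

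In every list, regions at sites of the other factor had higher fold on average. Fold enrichment was ranked within each list and given as a percentile. Regions over both lists of the other factor had a mean percentile of 73.9 and 71.9 in the CLAMP lists, and the remaining regions 45.4 and 46.2. In the GAF lists the values were 60.8 and 83.0 against 43.7 and 47.8. Shared regions were therefore higher by 28.5 and 25.6 percentile points in CLAMP and by 17.1 and 35.2 in GAF. The factors did not separate in this measure (difference 0.88 points, exact permutation p = 1), and its sign turned with equal-length lists (-4.03).

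Split into deciles by fold, the strongest decile of the CLAMP lists was at GAF sites for 51.0% and 43.7% of regions and the middle one (decile 5) for 5.05% and 4.85%. The rise was not steady, since the weakest CLAMP decile had 7.30% and 10.2%, above decile 5. In GAF replicate 2 the strongest decile was at CLAMP sites for 39.0% and the decile below it for 7.72%. In GAF replicate 1 the rise was gradual, from 18.7% in the weakest decile to 51.4% in the strongest, with 57.8% just below. Regions also widened with fold, from a median of 189 and 254 bp in the weakest decile to 535 and 657.5 bp in the strongest for CLAMP, and from 246 and 348 bp to 964 and 511 bp for GAF. An overlap needs only 1 bp, and the part of width in the rise of sharing was not tested.

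**Figure D2:**
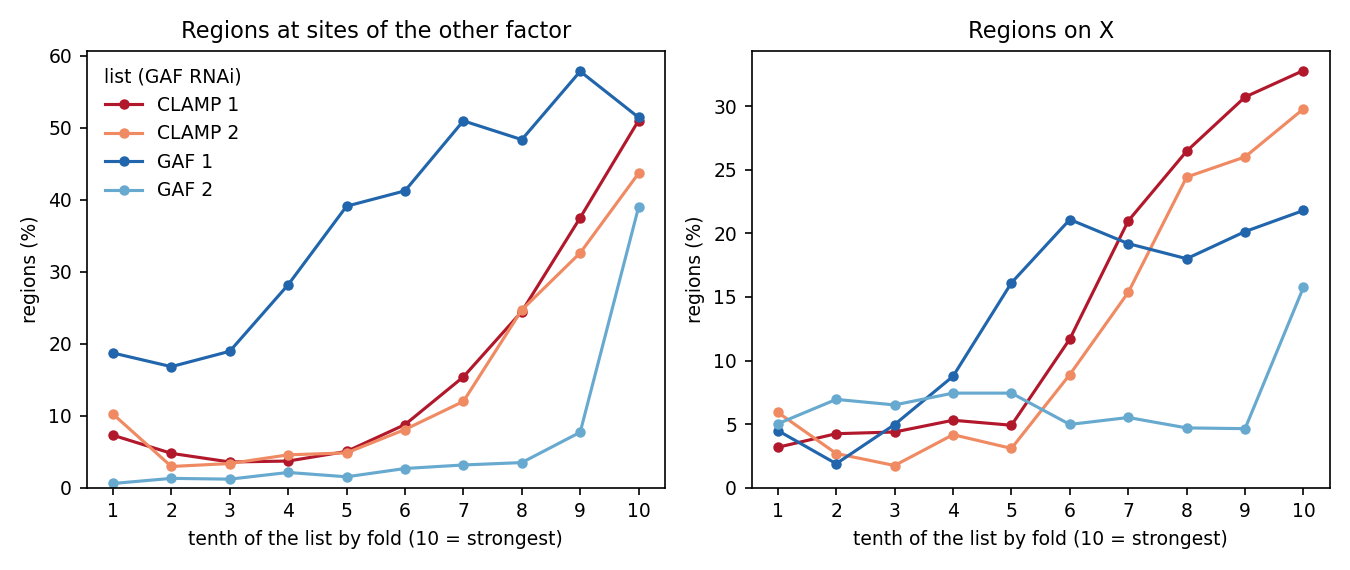
Each list was cut into deciles by the authors' fold enrichment (x axis, 10 the strongest), and the percentage of regions over both lists of the other factor (left) and on X (right) is drawn per list. Sharing reaches 51.0%, 43.7%, 51.4% and 39.0% in the strongest decile of CLAMP 1, CLAMP 2, GAF 1 and GAF 2, where regions are also widest, and the X share there is higher in both CLAMP lists than in either GAF list.

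The arms were used differently by the strong regions of the factors. Among the 1000 regions of highest fold, X held 32.7% and 28.2% of the CLAMP regions and 20.5% and 20.1% of the GAF regions. Both CLAMP lists were thus above both GAF lists. The difference was 10.15 points (CLAMP 30.45% ± 3.18, GAF 20.3% ± 0.28, SD, n = 2 each, exact permutation p = 0.333, the smallest possible). Among the strongest 500 the difference was 9.9 points and among the strongest 2000 it was 11.65 points, with the same p and no overlap. Among the strongest 100 the lists overlapped, with 46% and 21% of CLAMP and 23% and 14% of GAF regions on X. X makes up 18.6% of the 6 arms, measured to the last base of each arm that any list calls.

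In whole lists this contrast was not seen. X held 14.5% and 12.2% of CLAMP regions and 13.6% and 6.90% of GAF regions, so the groups overlapped (difference 3.07 points, exact permutation p = 0.667). The sign turned without GAF replicate 2 (-0.30 points). With the lists limited to 4220 regions of highest -log10 q each, the difference was 8.91 points, and with a -log10 q of at least 5 it was 13.9 points (exact permutation p = 0.333 for each).

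Over whole lists the factors did not overlap on 2L, 2R and 3R, and they overlapped on 3L, 4 and X. CLAMP replicate 2 had 32.8% of its regions on 2L and CLAMP replicate 1 had 24.9%, against 22.1% and 20.4% in GAF. 3R held 22.2% and 18.2% of CLAMP regions and 24.1% and 29.9% of GAF regions. 2R held 16.5% and 12.2% of CLAMP regions and 18.0% and 20.8% of GAF regions. On each of 2L, 2R and 3R the exact permutation p was 0.333, the smallest possible and the value of any split without overlap. The arm shares of a list add up to the whole, so the arms are not independent. On 2L the CLAMP lists differed more from each other than CLAMP replicate 1 from GAF replicate 1. Of the 3152 sites called by CLAMP replicate 2 only, 41.9% were on 2L. At the strongest 1000, 2L went the other way, with 14% and 15.6% for CLAMP and 17% and 17.3% for GAF.

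On chromosome 4, which is small and largely heterochromatic, sites called by both lists of a factor were mostly CLAMP sites. CLAMP replicate 1 called 229 regions there, or 179.5 per Mb, and CLAMP replicate 2 called 94, or 73.7 per Mb. GAF replicate 1 called 80 regions, or 62.7 per Mb, and GAF replicate 2, the longest list, called 29, or 22.7 per Mb. Chromosome 4 was the densest arm of CLAMP replicate 1 and of GAF replicate 1, which had 25.7 to 40.6 regions per Mb on the others. CLAMP replicate 2 was denser on 2L (105.8 per Mb). As a share of the whole list, 4 held 3.04% and 1.27% of CLAMP regions and 1.90% and 0.16% of GAF regions, so the factors overlapped (exact permutation p = 0.667). Among the strongest 1000 it held 0.4% and 0.5% of CLAMP regions and 0.4% in each GAF list (exact permutation p = 1). Both CLAMP lists called 57 sites on 4 and both GAF lists 6. Of these, 38 were CLAMP alone, 5 were shared and 1 was GAF alone. Per Mb, sites of both CLAMP lists numbered 44.7 on 4, 33.1 on X, 32.6 on 2L and 22.7 to 25.5 on 2R, 3L and 3R. Sites of both GAF lists numbered 4.70 per Mb on 4 and 15.5 to 18.4 on the other arms. In the CLAMP lists of GFP RNAi, 4 held 80.7, 5.49 and 31.4 regions per Mb in replicates 1, 2 and 4. It was the densest arm in replicate 1 (41.9 to 52.1 on the others). In replicate 2 (14.2 to 29.2 on the others) and replicate 4 (44.1 to 117.9) it was the least dense.

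Where both factors were called, their summits lay farther apart than replicate summits of CLAMP. The summit is the base of highest signal that the authors' caller reports, and per list the summit of the region of highest fold at the site was used. At the 959 shared sites the median distance between CLAMP replicates was 18 bp. Between GAF replicates it was 44 bp. Between the factors it was 48 bp and 47 bp for GAF replicate 1 and 70 bp for GAF replicate 2 with either CLAMP list. All 4 distances between factors exceeded both distances within a factor. The smallest of them was close to the GAF distance. The mean between factors was 58.8 bp and within factors 31 bp, a difference of 27.8 bp (exact permutation p = 0.333 over the 3 ways to pair the lists, the smallest possible). This difference was 51 bp without GAF replicate 1, 17.5 bp without CLAMP replicate 1 and 15.5 bp without CLAMP replicate 2. Site by site, the mean distance between factors exceeded the mean within factors at 565 of the 959 sites (58.9%).

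**Figure D3:**
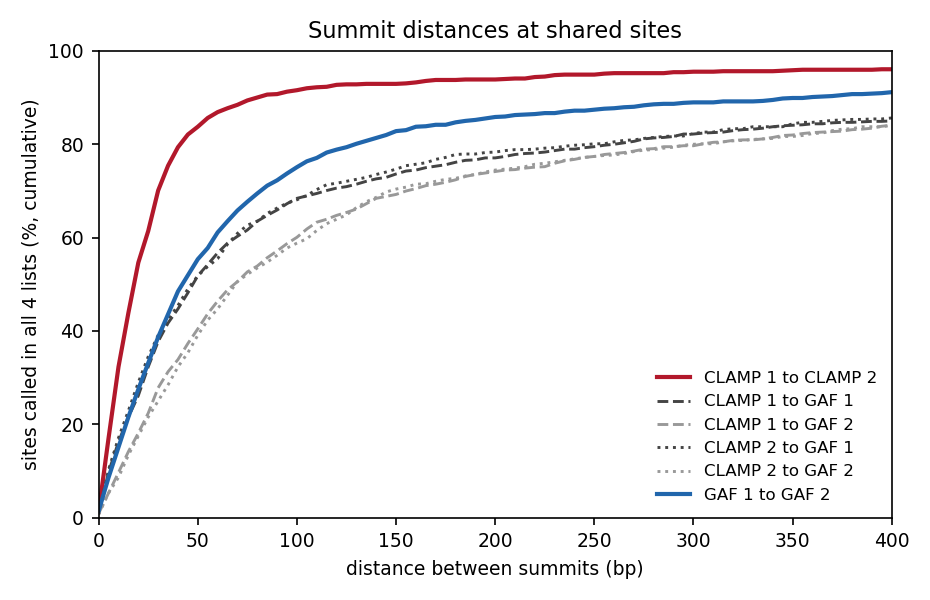
Cumulative percentage of the 959 shared sites (y axis) whose summits in 2 lists lie within the distance on the x axis (bp), for the 6 pairs of lists. Solid lines are replicates of 1 factor and broken lines are CLAMP to GAF pairs. The CLAMP pair reaches 83.7% at 50 bp, the GAF pair 55.4%, and the pairs between factors 39.1% to 51.8%.

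Where replicates of each factor agreed on the summit, the factors mostly lay close together. At 445 of the 959 sites the replicates of each factor placed their summits within 50 bp of each other. At 278 of these 445 sites (62.5%) the midpoint of the CLAMP summits and that of the GAF summits were within 50 bp. At 99 sites they were more than 50 and up to 150 bp apart, and at 68 sites (15.3%) more than 150 bp. Over all shared sites, 19.9% to 22.6% had CLAMP and GAF summits more than 250 bp apart, against 5.11% between CLAMP replicates and 12.6% between GAF replicates. Shared sites were wide (median 897 bp) and 70.4% of them held exactly 1 region of every list. With only those sites the difference between and within factors was 21 bp.

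Among shared sites, a strong CLAMP site was not as a rule a strong GAF site. Only sites called in all 4 lists enter here, and the effect of that choice on the coefficients was not tested. Over whole lists, the strongest decile of CLAMP regions was more often at GAF sites than decile 5, as given above. Across the 959 sites, fold ranks had a Spearman coefficient of 0.45 between CLAMP replicates and 0.52 between GAF replicates. Between factors the coefficients were 0.16 and 0.23 for lists of the same replicate number and -0.06 and 0.08 for lists of different number. All 4 were below both replicate values. These coefficients are descriptions over sites, in which lists share the genome sequence and site width. The mean within factors exceeded that between factors by 0.38 (exact permutation p = 0.333, the smallest possible), and by 0.25 without GAF replicate 2 and 0.32 to 0.45 with each of the other lists left out.

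The strongest regions were also mostly different between the factors. Of the 100 regions of highest fold, 25% were common to the CLAMP replicates, 20% to the GAF replicates and 1% to 7% to a CLAMP and a GAF list. Of the 1000 strongest, 61.6% and 62.1% were common within CLAMP and within GAF, and 23.2% to 28.95% between the factors (means of both directions). For the lengths 100, 500, 1000, 2000 and 4000, each pair of replicates shared more than any pair of different factors (exact permutation p = 0.333).

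Single sites, given in 1-based dm3 coordinates, show both cases. The shared site with the best mean rank was X 7954206 to 7955900, with fold values of 17.6 and 7.50 in the CLAMP lists and 12.2 and 12.3 in the GAF lists. Its 4 summits fell between 7955125 and 7955159, and no MSL3 region covered it. The second was 2R 15993669 to 15994598, with fold values of 10.4 and 9.28 for CLAMP and 9.59 and 16.1 for GAF and summits from 15994069 to 15994087. At both sites the midpoints of CLAMP and GAF were within 9 bp of each other. At 3L 14266763 to 14267783, the GAF lists gave 13 and 23.5, ranks 3 and 1 among the 959 shared sites. The CLAMP lists gave 7.26 and 6.81 there, ranks 221 and 93. The remaining sites of the best 8 were 3L 15527078 to 15528754, 2L 19397892 to 19399568, 2R 11236808 to 11237808, 3L 7427887 to 7428777 and X 3634548 to 3635565. At the 8 sites the midpoints were 6 to 82 bp apart.

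Other shared sites were strong for 1 factor only. At 3L 14456537 to 14457058 the CLAMP lists gave 13.2 and 9.52 and the GAF lists 1.96 and 3.00, with the factors' midpoints 8.5 bp apart and replicate summits 10 bp (CLAMP) and 3 bp (GAF) apart. At 3R 24888679 to 24890155 CLAMP gave 9.88 and 6.74 and GAF 1.53 and 2.41, and the midpoints were 902.5 bp apart, with GAF replicate summits 264 bp apart. The other 3 sites that leaned most to CLAMP were 3L 4625458 to 4626520, X 13633384 to 13634041 and 3L 9846831 to 9848516. In the converse direction, 3L 17906095 to 17907706 had CLAMP values of 2.03 and 1.93 and GAF values of 11.8 and 14.4. Its midpoints were 1.5 bp apart, but replicate summits were 72 bp apart for CLAMP and 67 bp for GAF. At 2R 5912701 to 5914735 CLAMP gave 1.56 and 2.50 and GAF 9.19 and 15.9, with the midpoints 608.5 bp apart and replicate summits 7 bp (CLAMP) and 36 bp (GAF) apart. The other 3 that leaned most to GAF were 3R 4983465 to 4984361, 3L 11240460 to 11241747 and X 10440593 to 10441953. Of these 4 sites, the first and the last had replicate summits within 50 bp for both factors, with near midpoints in the first and distant ones in the last.

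The first CLAMP-alone site, 3R 24497832 to 24498552, headed the class in both lists with fold values of 18.3 and 11.2 and summits 5 bp apart. It was followed by 3R 11021670 to 11022783, 3L 4553207 to 4553917, 4 1009905 to 1010536 and 2L 22168369 to 22169633. The first on X was X 16352563 to 16353057, with 11.4 and 8.70 and summits 2 bp apart. Strong CLAMP signal thus occurred where neither GAF list called a region. The first GAF-alone site was 3R 11301469 to 11302835 with 10.2 and 18.1, followed by 2L 5144924 to 5147977 and X 1128722 to 1129813. The next were 3L 13912817 to 13913421 and 2L 6791693 to 6792481. On 4, the single GAF-alone site was 4 1272320 to 1272815, with values of 3.21 and 3.70. The first shared site on 4 was 4 527095 to 529536, a wide one whose CLAMP summits were 1838 bp apart.

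As classes, CLAMP-alone and GAF-alone sites were weaker than shared sites in each list that defines them. Median fold in the CLAMP lists was 4.50 and 3.53 at shared sites and 2.51 and 2.61 at CLAMP-alone sites. In the GAF lists it was 4.68 and 5.31 at shared sites and 3.31 and 4.30 at GAF-alone sites. CLAMP-alone sites were also narrower (median 414.5 bp) than GAF-alone sites (556 bp). A merged site of 4 lists can only be as wide as or wider than its widest region. CLAMP-alone sites had the nearest GAF region of either list at a median gap of 1774.5 bp, and 552 of 1606 (34.4%) had one within 1000 bp. For GAF-alone sites the nearest CLAMP region was at a median of 3823 bp, and 23.9% had one within 1000 bp. The CLAMP and GAF lists differ in total length, and its part in these gaps was not tested.

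MSL3 gave a readout that did not define the classes. The MSL3 lists of GAF RNAi are long and weak, with 33316, 22922 and 18519 regions, of which 225, 335 and 0 had a -log10 q of at least 1.3. X held only 6.71%, 6.98% and 5.21% of these regions, below the 18.6% of the 6 arms that X makes up. The part of weak calls in the cover was not tested. On X, MSL3 regions covered 51.3%, 39.1% and 13.4% of the 419 CLAMP-alone sites in MSL3 replicates 1 to 3. They covered 33.0%, 27.8% and 5.67% of the 194 shared sites and 21.2%, 13.6% and 5.93% of the 118 GAF-alone sites. CLAMP-alone sites were covered more often than shared sites in 3 of 3 MSL3 lists, by 7.70 to 18.3 points. The mean difference was 12.4 ± 5.40 points (SD, n = 3, exact sign-flip permutation p = 0.25, the smallest possible, adjusted over 7 contrasts 0.35). On X the median width was 841 bp for shared, 369 bp for CLAMP-alone and 528.5 bp for GAF-alone sites, and the part of width in the cover was not tested.

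On autosomes CLAMP-alone sites were covered less often than shared sites. MSL3 regions covered 25.9%, 31.6% and 3.96% of CLAMP-alone sites, 27.3%, 38.4% and 7.84% of shared sites and 36.9%, 37.7% and 24.4% of GAF-alone sites. This difference had the same sign in 3 of 3 lists (mean -4.06 ± 2.70 points, SD, n = 3, exact permutation p = 0.25, adjusted 0.35). The difference of these contrasts, X minus autosomes, was 16.5 ± 4.34 points and positive in 3 of 3 lists (exact permutation p = 0.25, adjusted 0.35). Over all 2181 merged sites on X, weak calls of single lists included, MSL3 cover was 43.6%, 42.7% and 18.2%. Cover of CLAMP-alone sites was above that background in MSL3 replicate 1 and below it in replicates 2 and 3. Over all 25871 merged autosomal sites the cover was 52.1%, 62.1% and 47.1%, above that of all 3 classes. Leaving out 1 of the CLAMP, GAF or MSL3 lists gave 6.19 to 14.8 points for the contrast on X, the lowest without GAF replicate 1.

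**Figure D4:**
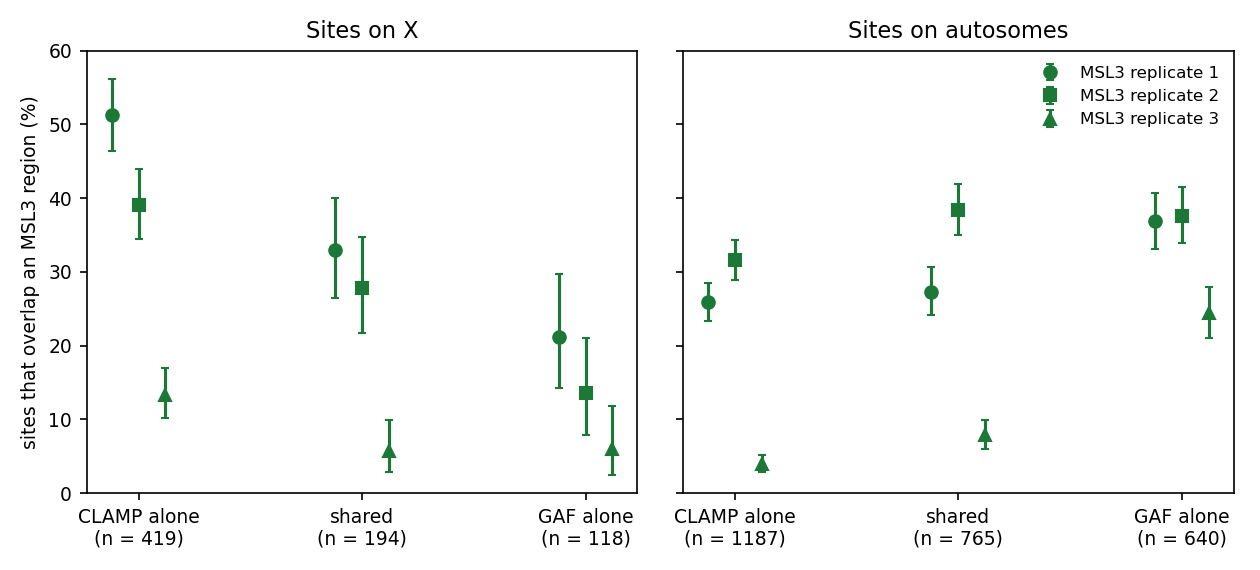
Percentage of CLAMP-alone, shared and GAF-alone sites that overlap an MSL3 region under GAF RNAi, on X (left) and on autosomes (right), for the 3 MSL3 lists, with exact 95% intervals that cover counting error only. On X every list has CLAMP-alone above shared sites, and on autosomes every list has CLAMP-alone below shared sites.

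The same sites were looked up in the 4 MSL3 lists of GFP RNAi. Cover over all merged sites was not computed for these lists, so the class values stand without that background. There MSL3 covered 53.7%, 38.7%, 34.6% and 23.4% of the CLAMP-alone sites on X and 18.6%, 11.9%, 6.19% and 34.5% of the shared sites. Replicates 1 to 3 had CLAMP-alone above shared and replicate 4 had the reverse (mean difference 19.8 ± 20.9 points, SD, n = 4, exact permutation p = 0.25, smallest possible 0.125, adjusted over 7 contrasts 0.438). On autosomes these lists covered 25.1%, 2.86%, 0.67% and 45.1% of CLAMP-alone sites and 11.6%, 3.01%, 0.39% and 51.4% of shared sites. The lower cover of CLAMP-alone sites under GAF RNAi was not seen there, since the mean difference was 1.83 ± 8.33 points with both signs among the lists (SD, n = 4, exact permutation p = 0.75, adjusted 0.875). X minus autosomes was 18 ± 15.5 points, from -4.85 to 28.1 (SD, n = 4, exact permutation p = 0.25, adjusted 0.438).

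The classes were then looked up in the CLAMP and GAF lists of GFP RNAi. The CLAMP lists held 5380, 2178 and 10984 regions, and the lengths of the GAF lists are given above. Here and for CLAMP RNAi below, the share of all merged sites called was not computed. The part of list length in these shares was not tested. Shared sites were called at 95.8%, 75% and 83.2% by the CLAMP lists and at 99.3%, 96.9% and 89.4% by the GAF lists. GAF-alone sites were called at 96.6%, 91.0% and 83.9% by GAF and at 16.6%, 1.45% and 25.3% by CLAMP. CLAMP-alone sites were called at 71.4%, 45.1% and 51.5% by CLAMP and at 8.59%, 2.43% and 0.75% by GAF. Of the 3 classes, CLAMP-alone sites were called least completely by the lists of their own factor. On X the CLAMP lists of control called 91.6%, 71.4% and 67.5% of the CLAMP-alone sites, and on autosomes 64.3%, 35.8% and 45.8%. The 552 sites of both CLAMP lists and GAF replicate 1 were called by the GAF lists of control at 48.9%, 40.9% and 36.2%, and the 195 sites with GAF replicate 2 at 60%, 18.5% and 4.10%.

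**Figure D5:**
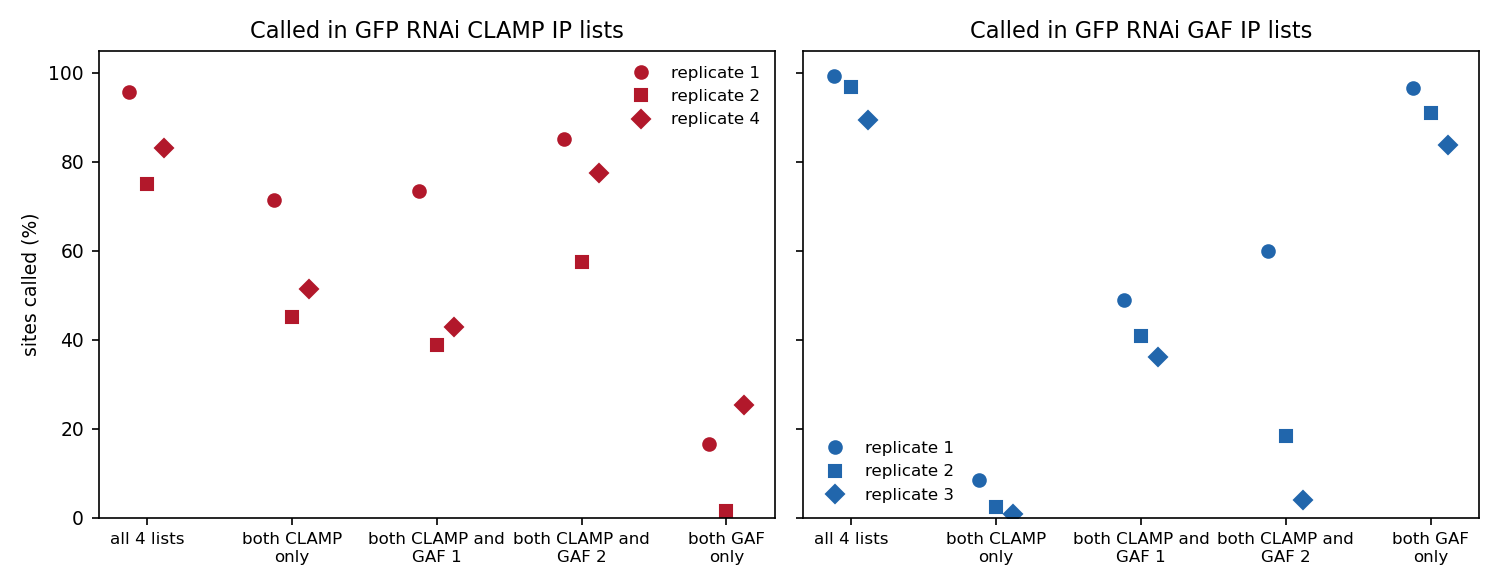
Percentage of the sites of each class that hold a region of the CLAMP lists (left) and of the GAF lists (right) of GFP RNAi, with 1 symbol per replicate. GAF lists call 83.9% to 99.3% of shared and GAF-alone sites and at most 8.59% of CLAMP-alone sites. Sites of both CLAMP lists and 1 GAF list range from 4.10% to 60%.

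After CLAMP RNAi, GAF lists still called 94.7% to 98.1% of shared sites and 86.3% to 92.0% of GAF-alone sites. CLAMP-alone sites were called by these 3 GAF lists at 7.47%, 6.48% and 17.0%, and on X at 12.9%, 10.7% and 19.1%. CLAMP lists of CLAMP RNAi, which are short (749 and 430 regions), called 35% and 21.4% of the shared sites. They called 13.5% and 8.59% of CLAMP-alone sites and 0.92% of GAF-alone sites in replicate 1. In replicate 2 they called 0 of 758 GAF-alone sites (exact 95% upper bound 0.49%).

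The overlap of the factors was set against that in control cells with all 10 lists cut to 2178 regions of highest -log10 q. CLAMP regions over a GAF region made up 44.6% and 33.7% (CLAMP replicate 1 with GAF replicates 1 and 2) and 40.9% and 31.4% (CLAMP replicate 2). In the 9 pairs of GFP RNAi the range was 35.3% to 43.1%. Pairs with GAF replicate 1 thus lay above or within the control range, and pairs with GAF replicate 2 below it. The means were 37.6% and 38.8%, a difference of -1.21 points, smaller than the spread (exact permutation of the RNAi label within antibody, p = 0.77, smallest possible 0.01). This difference turned positive with shorter cuts of all 10 lists. At 646 regions, the length of the shortest list at a -log10 q of at least 5, it was 5.73 points (exact permutation p = 0.07). At 1471 regions, the shortest at 1.3, it was 4.81 points (exact permutation p = 0.12). At 2178 regions it was -6.34 points without GAF replicate 1, 3.93 points without GAF replicate 2 and 0.30 points without CLAMP replicate 2.

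The contrasts between the factors did not differ from those in control cells beyond the spread of the lists. The CLAMP minus GAF difference in the share on X was 3.07 points under GAF RNAi and 4.73 points under GFP RNAi. The difference of the differences was -1.66 points (exact permutation p = 0.87, adjusted over 3 measures 0.95). For the log2 number of regions it was 0.14 (exact permutation p = 0.95, adjusted 0.95) and for median width -15.8 bp (exact permutation p = 0.86, adjusted 0.95).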

How the data were processed

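ChIP-seq peak lists of CLAMP and GAF under GAF RNAi were compared, with lists of MSL3, of GFP RNAi and of CLAMP RNAi as further readouts. Reads were processed with Bowtie (no version given) and MACS2 2.1.1 on build dm3, per the submitters' processing notes. Options and the control given to the caller are not given in the sources used here. The authors called 1 list per library. In the deposited lists a region has a fold enrichment (a ratio) and, within its library, −log10 values of p and q. Narrow peaks also have a summit. The lowest −log10 p is 1.3 in each of the 4 lists. The lists hold no read counts, so depth is unknown.

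Regions on 6 arms were used, and 1.50% of all regions lie elsewhere. Regions sharing at least 1 bp overlap, and merged regions are sites. The other class rules stand with the results. With a CLAMP or GAF list left out, the rules apply to the remaining list of that factor. Library means were tested by exact permutation, two-sided, at a threshold of 0.05. Adjusted p-values are Benjamini-Hochberg values, and over the 7 tests of CLAMP against GAF under GAF RNAi every adjusted p is 1. Intervals are exact Clopper-Pearson 95% intervals. Results were recomputed with regions of −log10 q from 5 or from 1.3, an overlap of 50% of the shorter region, equal-length lists (4220 regions, or 2178 with control), all sequences, −log10 q in place of fold, sites with 1 region per list, replicate number as block, and each library left out.

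The comparison, its members and its measures were chosen with earlier results of these data known. The analyses by decile, of arms among the strongest regions, of summit midpoints, of the nearest region, of sites called in 1 GAF list and of MSL3 in control were added after the files were seen. Sites were named by rule: the 8 shared sites of best mean fold rank over the 4 lists, 5 each with the greatest difference of mean ranks in either direction, the 5 best of each single-factor class, and the first of each class on X and 4. Genes and sequences are not given, since a dm3 genome was not used here. Coordinates are 1-based. Python 3.11.15 with numpy 2.4.6, scipy 1.17.1, pandas 2.3.3 and matplotlib 3.10.9 was used. Overlap counting was checked on simulated data for 4800 regions, with 0 disagreements.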

Additional observations from a re-analysis of the deposited data

How the results depend on the processing

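Of 149 recomputed values, 118 kept their direction or, for counts of sites, stayed within 1.5 times the reported value. These include the values with replicate number as a block, which equal the reported ones by construction. No test passed 0.05 under any alternative, but only the contrasts against control could have done so. The smallest possible p of the other tests was 0.25 or more. The differences in median width, summit distance, rank correlation and MSL3 cover on X kept their sign under each alternative run for them. With an MSL3 list left out this sign was fixed, since the difference on X was positive in every MSL3 list of GAF RNAi. At a −log10 q of at least 5, shared sites numbered 639 and CLAMP-alone sites 784. That limit turned the sign of the difference in sharing with the other factor (10.8 points), of the fold rank difference (-9.58), of the equal-length overlap against control (5.73) and of the X contrast against control (0.77). At 1.3 the first 3 were 5.08, -7.51 and 4.81. For the equal-length overlap these limits changed only the length of the lists, to 646 and 1471 regions. Equal-length lists turned the fold rank difference (-4.03) and the contrasts against control in width (10.5 bp) and X share (0.55).

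Leaving out single libraries gave ranges of 1053 to 1511 shared, 1806 to 5014 CLAMP-alone and 862 to 16080 GAF-alone sites. The CLAMP minus GAF differences then ranged from -1.29 to 0.82 in log2 regions, -0.30 to 6.44 points on X, -12.3 to 16.2 points in sharing and -15.9 to 5.06 in fold rank. Contrasts against control ranged from -6.34 to 3.93 points in overlap, -0.95 to 1.19 in log2 regions, -6.72 to 3.82 points on X and -79.8 to 48.2 bp in width. With a CLAMP or GAF list left out, site classes and sharing were defined by the remaining list of that factor. The ranges of site counts, sharing and fold rank therefore also reflect a changed rule. Other causes of these changes were not tested.

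Replicate numbers are shared by CLAMP and GAF, and no label says what they mean. With the replicate number as a block the differences are the same (-0.23, 3.07, -64.5, -6.28 and 0.88) and the exact permutation p is 0.5 for the X share and 1 for the others, 0.5 being the smallest possible. Over the 959 shared sites, differences between replicates 1 and 2 in log2 fold had a Spearman coefficient of 0.37 between the factors, a hint from the data and not from the design. Unknown read depth limits every comparison of list length and of absent calls.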
